A study of Mus musculus with 6 samples.

Results

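The 57 genes described here gave few RNA-seq reads in wild-type (WT) small intestinal organoids, and 53 of them were higher in Smarcad1 knockout (KO) organoids. They were chosen by their WT values from the 1420 genes of the deposited organoid table, as those whose mean over the 3 WT libraries lay under 1.5 RPM (mapped reads scaled to library depth). Genes named Gm followed by digits (15), names ending in Rik (4), and 4 genes of the Defa and Slfn families, Tlr4 and Clec2g, which also lay under this limit, were left out. The table holds genes that the authors had already called different between KO and WT, and the WT mean is one side of the same contrast. Every KO against WT value of the 57 genes is therefore a description, not a test.

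The 3 WT and 3 KO libraries come from C57BL/6 mice and were made from poly(A) RNA of about 600 organoids per condition. By the methods, cultured organoids were broken up and reseeded, and were collected 5 days later. The libraries were read in a strand-specific way as 50 bp pairs. The genotype label of the KO libraries names a Vil-Cre mediated KO, in which Cre is driven in the intestinal epithelium, while the growth protocol names ZP3-Cre, active in the oocyte, with littermate controls. All 3 WT samples are labelled wild type, and no label says which mouse each library came from, so the spread between libraries may hold technical as well as animal variation. Organoids are cultures grown from crypt epithelium, in principle without immune, nerve or muscle cells. This limits what they can stand for in the living gut. Whether any such cells remained was not tested.

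Smarcad1 is an ATP-dependent chromatin remodeller that helps keep silent chromatin, marked by methylated lysine 9 of histone H3, in place when DNA is copied. A differentiated epithelium holds many genes of other lineages in a silent state, among them genes for meiosis, nerve, muscle and immune cells, often by DNA methylation or by histone marks over their promoters. In RNA-seq such genes give few or no reads, so their level is set by counting as well as by transcription.

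Depth was alike in the groups. The libraries held between 1.24e+07 and 1.57e+07 reads, so that a floor of 3 reads corresponded to between 0.192 and 0.242 RPM. Intervals and floors given below cover counting error only. Smarcad1 itself stood at 105, 94.7 and 96.3 RPM in WT and at 21.7, 21.3 and 24.03 RPM in KO libraries. Of a list of 20 markers of small intestinal epithelium, 6 were in the table, 3 higher and 3 lower in KO, and they summed to between 9243 and 9535 RPM in WT and between 12508 and 13421 RPM in KO libraries. The higher sum came from Lyz1, the Paneth cell lysozyme (means of 2953 and 8167 RPM in WT and KO), while the enterocyte genes Fabp1 (3748 and 1815 RPM) and Alpi (1242 and 879 RPM) were lower. Of 22 leukocyte markers, Itgam was lower (means of 9.52 and 4.40 RPM in WT and KO) and Lyz2 higher (1.83 and 5.19 RPM), and their sum was 10.6 to 12.5 RPM in WT and 8.27 to 11.7 RPM in KO libraries. The markers of either list that are not in the table were not analysed here.

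By the rule the WT values were low. The WT means ran from 0 to 1.47 RPM with a median of 0.509 RPM, against a median of 64.1 RPM over the other 1363 genes of the table. The 57 genes had a median of 22 reads over the 3 WT libraries together. In spite of this 44 of them were seen in every WT library, 5 were missing from 1 library, 5 from 2 libraries and 3 from all of them. At most 3 reads were found in each WT library for 6 genes. Most of the genes were thus detectable in WT organoids. In RNA of whole organoids a few cells with much of a transcript and many cells with little cannot be told apart.

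The level reached in KO organoids was also low. Among the 53 genes with a higher KO mean, that mean ran from 0.966 to 9.73 RPM, with a median of 2.96 RPM. A KO mean of at least 2 RPM was reached by 38 genes, of at least 4 RPM by 13 and of at least 5 RPM by 9, while 15 genes were higher in KO but stayed under 2 RPM. No gene of the set reached the median KO mean of all listed genes, which was 64.4 RPM. Summed over the 57 genes, the level was 34.7, 37.4 and 34.1 RPM in the WT libraries and 193, 178 and 152 RPM in the KO libraries. KO sums all lay above WT sums. Since the set was chosen by low WT values among genes already called different, nothing is read from this gap.

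All 57 genes had KO values that did not overlap the WT values, where 98.5% of the listed genes did not overlap in one direction or the other. In limma (Benjamini-Hochberg adjusted p under 0.05 over the whole table) 53 of the genes were called higher and 4 lower, beside 52.5% higher and 47.4% lower over the table. Nothing is read from these counts, since the table and the limit were both drawn from this contrast. The KO to WT ratio of the 50 higher genes with at least 1 WT read ran from 2.58 to 93.9, with a median of 5.72, and the median was 1.67 for the 694 other listed genes that were higher in KO. On the log2(RPM + 0.1) scale, which understates low genes, the median change of the 53 genes was 2.45, and the median size of change over all listed genes was 0.64. With a pseudocount of 1 RPM in place of 0.1 these were 1.23 and 0.63, so the size of a log2 change of these genes rests on the pseudocount.

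**Figure D1:**
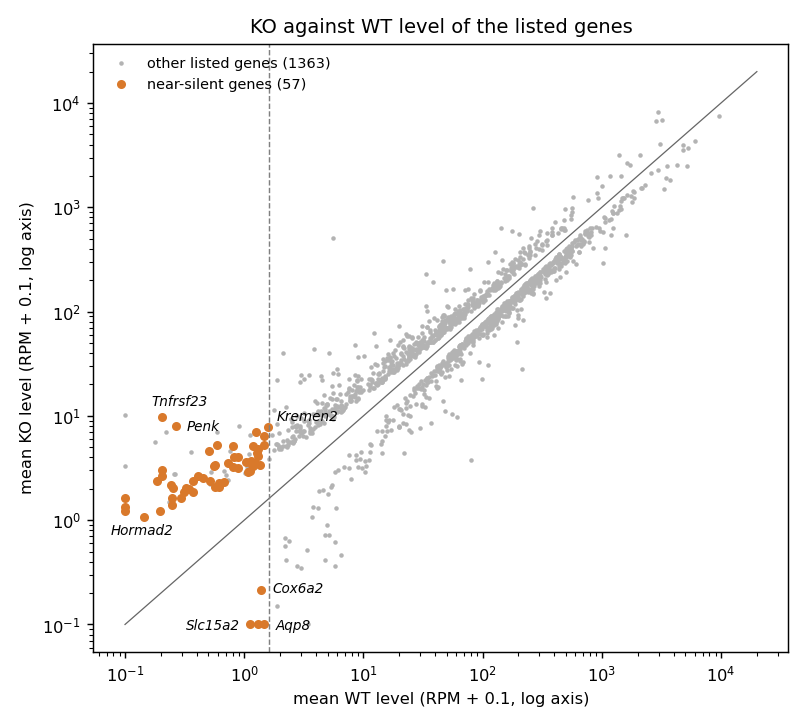
Mean KO level against mean WT level of the 1420 listed genes, both in RPM + 0.1 on log axes. Filled orange points are the 57 near-silent genes, grey points are the other 1363 genes (those left of the dashed 1.5 RPM line are the genes left out by name), and the solid line marks equal levels. All but 4 of the 57 genes sit above the line, the highest, Tnfrsf23, at a KO mean of 9.73 RPM.

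The direction of change went with the WT level across the table. After the same names were left out, all 28 genes with a WT mean under 0.5 RPM were higher in KO, as were 25 of 29 genes (86.2%) between 0.5 and 1.5 RPM. The share was 84.2% of 95 genes between 1.5 and 5 RPM, 79.9% of 169 genes between 5 and 20 RPM and 55.8% of 437 genes between 20 and 100 RPM. Above 100 RPM it was 26.3% of 537 genes. The share fell from step to step with no break at 1.5 RPM. The median fold of the higher genes fell alongside it, from at least 8.54 in the lowest step to 1.42 in the highest. The 8.54 is a lower limit, since the 3 genes without WT reads (Hormad2, Krt4 and Igfals) enter it at their bounds over the floor. WT values enter both the step and the direction, and a gene near 0 has little room to fall, so this gradient is a description. Seen from the other side, 25 genes had a KO mean under 1.5 RPM, of which 20 were lower in KO and 9 belong to the 57. The other 16 had WT means between 1.78 and 6.37 RPM.

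**Figure D2:**
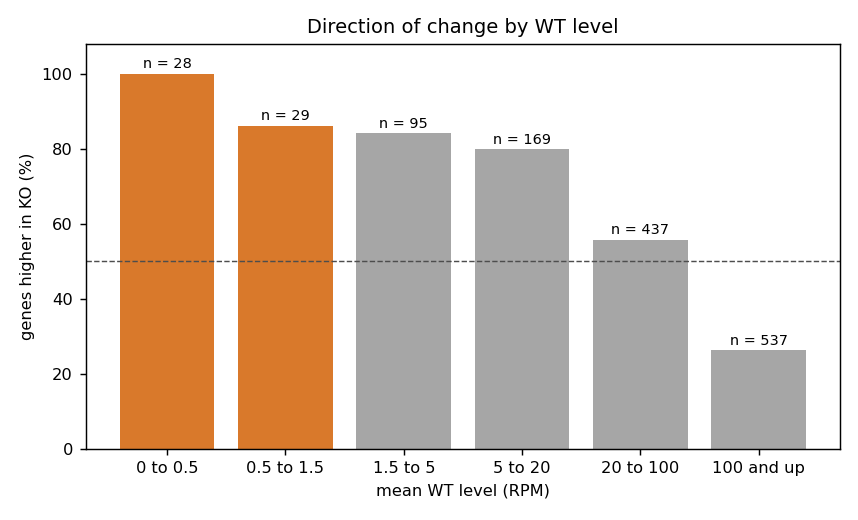
Share of listed genes with a higher KO mean (percent, vertical axis) in steps of mean WT level (RPM, horizontal axis), with the number of genes over each bar and a dashed line at 50%. Orange bars are the near-silent steps, grey bars the rest. The share falls from 100% under 0.5 RPM to 26.3% above 100 RPM.

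The genes came from 10 functional groups. By their known roles, they were sorted into germline (6), immunity (8), neuronal (6), muscle (4), liver and metabolism (8), channels and carriers (3), epithelial, secreted and surface proteins (8), cilia (2), other coding genes (6) and non-coding or unplaced transcripts (6). All genes of the germline, immunity, neuronal, liver, epithelial, cilia and other coding groups were higher in KO. The 4 lower genes were a water channel, a peptide carrier, a muscle gene and an unplaced transcript. Each group is described below, and the plot of every library shows all 57 genes.

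**Figure D3:**
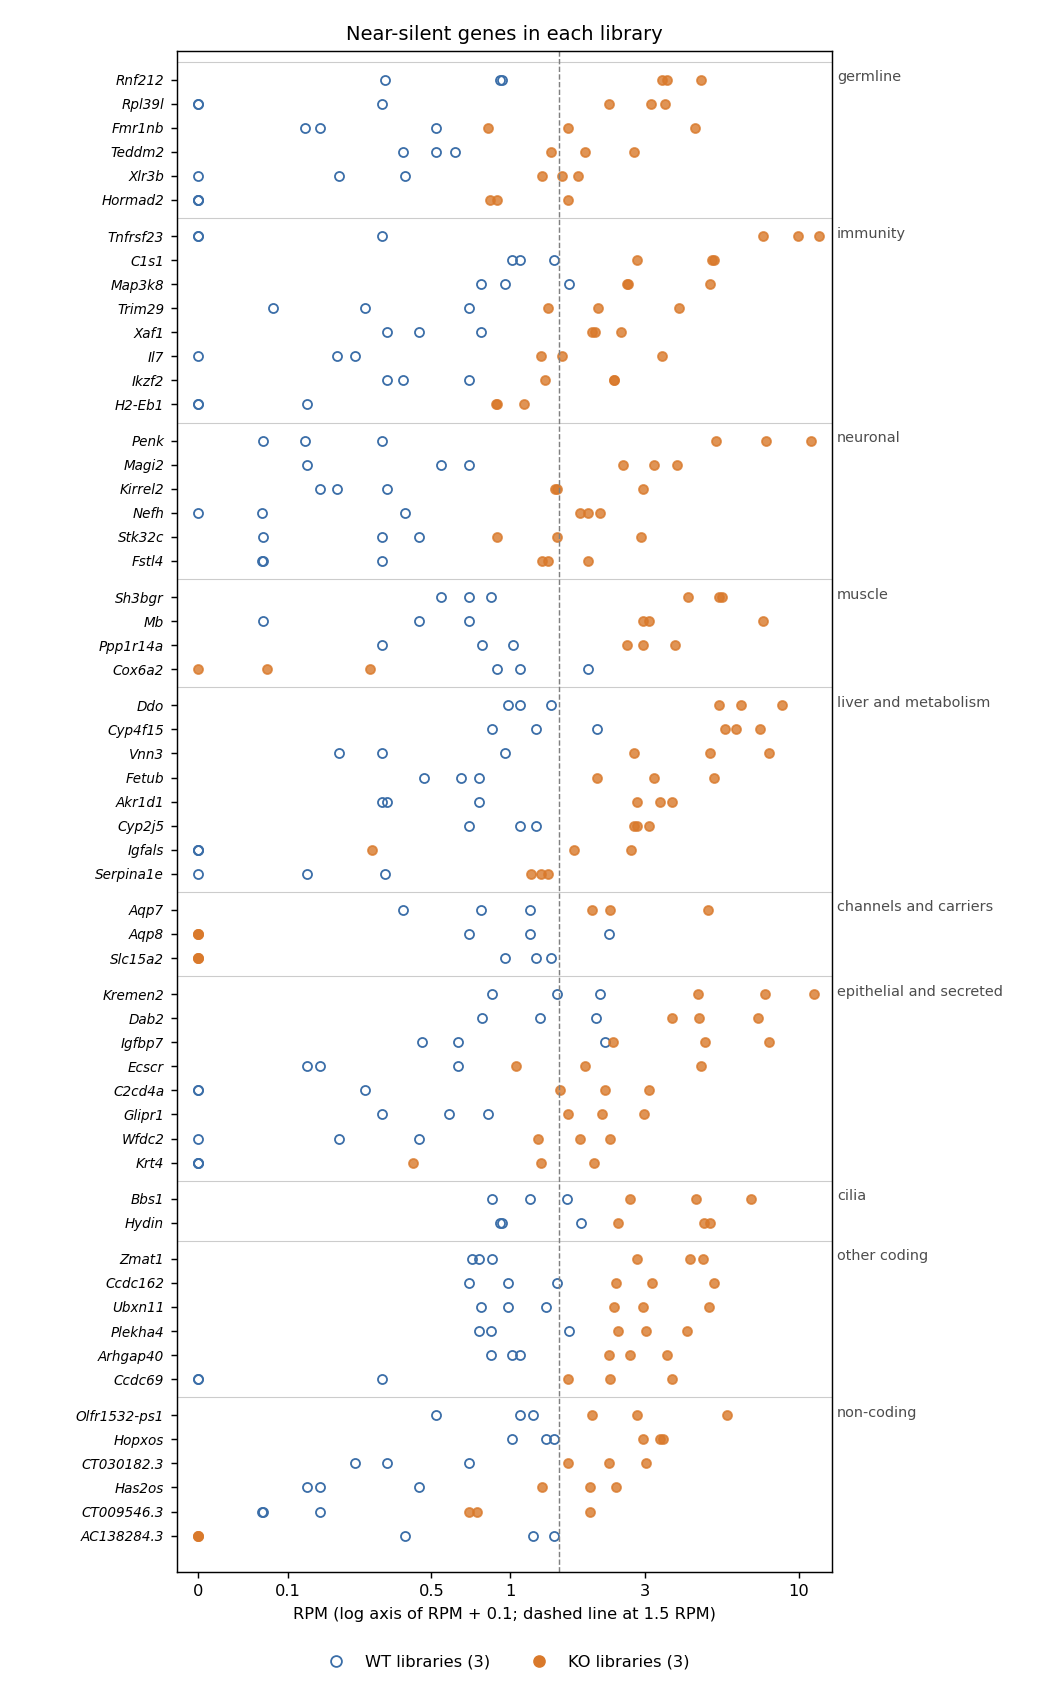
RPM of the 57 near-silent genes in each library, on a log axis of RPM + 0.1, with genes in rows sorted by role and by KO mean. Open blue circles are the 3 WT libraries and filled orange circles the 3 KO libraries, and the dashed line marks 1.5 RPM. KO circles lie to the right of all WT circles in 53 rows and to the left in 4, namely Cox6a2, Aqp8, Slc15a2 and AC138284.3.

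The 6 genes grouped as germline, Teddm2 of the male reproductive tract among them, were higher in KO, at means of 1.11 to 3.89 RPM. Hormad2 encodes a HORMA-domain protein of the meiotic chromosome axis and was at 0 in every WT library. It had 1.61, 0.892 and 0.841 RPM in the KO libraries (1.11 ± 0.430 RPM, SD, n = 3), at least 5.39-fold higher than a floor of 3 reads per WT library. Rnf212, a RING protein that selects sites of meiotic crossing over, had 0.933, 0.319 and 0.914 RPM in WT and 4.67, 3.43 and 3.57 RPM in KO libraries. Its means were 0.722 ± 0.349 RPM (SD, n = 3) and 3.89 ± 0.677 RPM (SD, n = 3), and all KO libraries were at least 3.43 RPM while no WT library passed 0.933 RPM. Rpl39l, a testis-expressed copy of a large-subunit ribosomal protein gene, was seen in 1 WT library only (0.311, 0 and 0 RPM) and had 3.14, 3.50 and 2.24 RPM in KO. This was a 28.6-fold difference with a counting interval of 12.3 to 121.

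Of the germline genes, Fmr1nb and Xlr3b lie on the X chromosome. Fmr1nb, next to Fmr1 and normally expressed in testis, had 0.155, 0.128 and 0.522 RPM in WT and 4.43, 0.824 and 1.61 RPM in KO libraries. KO replicate 1 stood far above the other KO libraries, and without it the KO mean of Fmr1nb was 1.22 RPM in place of 2.29. Xlr3b, of a family related to the synaptonemal complex protein Sycp3, was even across KO libraries at 1.53, 1.30 and 1.75 RPM, against 0.389, 0 and 0.196 RPM in WT. It shares 56.6% of its 50-base stretches with the copies Xlr3a, Xlr3c and Xlr3d-ps, so reads that map to it alone cover only part of it. Teddm2, of a family named for epididymal expression, had 0.622, 0.383 and 0.522 RPM in WT and 2.74, 1.85 and 1.40 RPM in KO, and its exons overlap those of Glul on the other strand, which itself had a WT mean of 205 and a KO mean of 333 RPM. Whether Glul reads enter the Teddm2 value was not tested. Of 67 germline genes on the list used, 8 were in the table, 6 of them in the set, and 7 were higher in KO. This count and those for the lists below include genes of the set, whose direction goes with their low WT level, so nothing is read from them. The exception was Rec8, a meiotic cohesin with means of 41.1 RPM in WT and 18.6 RPM in KO, and the other gene beyond these 6 was Khdc1a, at 2.01 and 39.6 RPM.

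Promoter sequences of 10 genes are shown so that the germline genes can be read beside H2-Eb1, beside Tnfrsf23 and Kremen2, which are among the 3 genes with the highest KO means, and beside Aqp8 and Slc15a2, which had no reads in KO. Each is the 150 bases just before the RefSeq start of the gene on build GRCm38.p6, written 5′ to 3′ on the strand of the gene, with CpG dinucleotides, the sites of DNA methylation, in capitals. The 5 germline stretches lie at chr11:4441083-4441232 (minus strand, Hormad2), chr5:108775028-108775177 (minus, Rnf212), chr16:10170078-10170227 (plus, Rpl39l), chrX:68761689-68761838 (plus, Fmr1nb) and chrX:73192029-73192178 (plus, Xlr3b).
Hormad2: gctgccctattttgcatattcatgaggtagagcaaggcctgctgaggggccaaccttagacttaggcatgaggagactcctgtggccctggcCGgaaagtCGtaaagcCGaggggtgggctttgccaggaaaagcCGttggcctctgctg
Rnf212: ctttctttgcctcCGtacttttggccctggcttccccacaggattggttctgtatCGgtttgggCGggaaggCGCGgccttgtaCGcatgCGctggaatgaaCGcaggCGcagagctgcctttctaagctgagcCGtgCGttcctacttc
Rpl39l: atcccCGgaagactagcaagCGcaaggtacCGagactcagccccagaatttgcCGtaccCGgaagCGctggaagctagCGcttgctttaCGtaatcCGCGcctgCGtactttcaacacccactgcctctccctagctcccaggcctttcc
Fmr1nb: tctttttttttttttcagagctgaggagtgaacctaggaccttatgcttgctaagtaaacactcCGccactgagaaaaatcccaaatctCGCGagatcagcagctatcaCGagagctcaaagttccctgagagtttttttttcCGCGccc
Xlr3b: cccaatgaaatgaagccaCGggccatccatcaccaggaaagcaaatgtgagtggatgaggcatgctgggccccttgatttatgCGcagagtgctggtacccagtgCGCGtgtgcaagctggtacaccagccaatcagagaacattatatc

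CpG content differed within the germline group. Rnf212 and Rpl39l had 11 CpG each in this stretch, Fmr1nb had 6, and Hormad2 and Xlr3b had 4 each. The other 5 stretches lie at chr17:34305717-34305866 (plus strand, H2-Eb1), chr7:143685876-143686025 (minus, Tnfrsf23), chr17:23745830-23745979 (minus, Kremen2), chr7:123462144-123462293 (plus, Aqp8) and chr16:36784963-36785112 (minus, Slc15a2).
H2-Eb1: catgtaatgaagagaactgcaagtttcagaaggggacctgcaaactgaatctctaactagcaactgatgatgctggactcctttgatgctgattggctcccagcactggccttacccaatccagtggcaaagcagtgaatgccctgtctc
Tnfrsf23: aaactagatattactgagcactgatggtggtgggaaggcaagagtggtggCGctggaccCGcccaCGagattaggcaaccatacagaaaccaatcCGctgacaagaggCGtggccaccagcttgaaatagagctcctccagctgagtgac
Kremen2: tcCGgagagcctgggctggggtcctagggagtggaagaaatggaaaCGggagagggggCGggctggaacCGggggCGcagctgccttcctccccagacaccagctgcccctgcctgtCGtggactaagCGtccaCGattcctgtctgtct
Aqp8: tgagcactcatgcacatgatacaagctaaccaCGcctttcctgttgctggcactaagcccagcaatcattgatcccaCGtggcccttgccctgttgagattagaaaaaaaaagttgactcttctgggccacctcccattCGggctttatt
Slc15a2: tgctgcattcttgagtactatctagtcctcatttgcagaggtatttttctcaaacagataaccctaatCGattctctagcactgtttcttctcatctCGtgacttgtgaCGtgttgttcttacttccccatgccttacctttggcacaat

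H2-Eb1 had no CpG in its stretch, Tnfrsf23 had 5, Kremen2 had 8, and Aqp8 and Slc15a2 had 3 each. A window of 300 bases (250 before to 50 after the start) was searched on both strands for 3 short motifs that do not overlap one another. Among the 37 genes of the set with a promoter, CACGTG, the E-box, was found at 6 (Rnf212, Aqp8, C2cd4a, Ddo, Olfr1532-ps1 and Ubxn11), and it is in 7.24% of the promoters of 27025 genes. TTCCCGCC, the core of an E2F-type site, was found at 2 of the 37, Rnf212 and Slc15a2, and in 2.24% of all promoters. CTGATTGG, an inverted CCAAT box, was found at 2 of the 37, H2-Eb1 and Xlr3b, and in 4.31% of all promoters. The shares over all genes take the first listed promoter of each gene, while the set takes the promoter nearest the annotated start. Each match is a match of letters only, and nothing is read from these counts. The 37 genes are 64.9% of the set, under the 80% needed, so a comparison of CpG content between the whole set and other genes was void and was not made.

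Immunity genes included the one with the highest KO level. Tnfrsf23, a decoy receptor for the death ligand TRAIL in a gene cluster of distal chromosome 7, had 0.311, 0 and 0 RPM in WT and 7.57, 11.7 and 9.95 RPM in KO libraries. Its 4 WT reads all came from WT replicate 1, against 406 KO reads, so the 93.9-fold difference has a wide counting interval of 41.8 to 398. The gene shares 19.3% of its 50-base stretches with others, Tnfrsf22 and the opposite-strand E230032D23Rik. H2-Eb1, the beta chain of a class II molecule that presents peptides to helper T cells, had 0, 0 and 0.131 RPM in WT and 0.886, 0.892 and 1.12 RPM in KO. With 2 WT reads and 40 KO reads the ratio was 22.2, with a counting interval of 5.51 to 182. Its KO libraries were close to each other and each held more than any WT library. Of 15 class II genes on the list, Ctss, a protease that trims the invariant chain, was the other one in the table, with means of 36.3 RPM in WT and 67.2 RPM in KO. Of the leukocyte markers in the table, given above, Itgam was lower and Lyz2 higher in KO, so their sum adds opposite changes. The part of such cells in the class II values was not tested.

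The other immunity genes reached 2.00 to 4.34 RPM in KO. These were C1s1 (a protease of the classical complement pathway), Map3k8 (a kinase of the inflammatory MAP kinase pathway), Trim29 (a TRIM-family protein of epithelia), Xaf1 (an interferon-induced antagonist of the apoptosis inhibitor XIAP), Il7 (a survival cytokine of lymphocytes) and Ikzf2 (the transcription factor Helios). Il7 had the largest ratio among them, from 0.142 ± 0.124 RPM (SD, n = 3) in WT to 2.09 ± 1.17 RPM (SD, n = 3) in KO (14.7-fold, counting interval 6.88 to 43.6), with KO replicate 2 above the other KO libraries. C1s1 shares 35.1% of its 50-base stretches with C1s2 and an overlapping gene. From the list of 44 cytokine, death receptor and innate genes, 12 were in the table, all higher in KO, where 52.5% of all listed genes were called higher. Since 8 of the 12 belong to the near-silent set, nothing is read from this count.

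Neuronal genes were led by Penk. This gene (chr4:4133531-4138819, GRCm38, minus strand) encodes proenkephalin, the precursor of the enkephalin opioid peptides, and had 0.311, 0.128 and 0.0653 RPM in WT and 7.73, 5.22 and 10.9 RPM in KO libraries. The WT libraries together gave 7 reads and the KO libraries 328, a 47.4-fold difference with a counting interval of 23.9 to 125. Without WT replicate 1 the WT mean of Penk was 0.0965 RPM in place of 0.168. Penk overlaps A830012C17Rik on the other strand over part of its exons. Magi2, a scaffold protein of synapses and cell junctions, had 0.544, 0.703 and 0.131 RPM in WT and 3.22, 3.84 and 2.52 RPM in KO. Nefh, the heavy neurofilament chain of axons, had 0, 0.0639 and 0.392 RPM in WT and a narrow range of 2.09, 1.78 and 1.89 RPM in KO. For both genes every KO library stood well above every WT library.

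Kirrel2, an adhesion protein of the immunoglobulin superfamily, had 0.155, 0.192 and 0.326 RPM in WT and 1.45, 2.95 and 1.47 RPM in KO libraries. The authors describe Kirrel2 as a regulator of insulin secretion in beta cells, so the group holds neuroendocrine as well as neuronal genes. Kirrel2 lies 2.00 kb from another listed gene, Aplp1, on the same strand. Aplp1 had means of 38.2 RPM in WT and 190.4 RPM in KO. Stk32c, a serine/threonine kinase, had 0.311, 0.447 and 0.0653 RPM in WT and 2.90, 0.892 and 1.47 RPM in KO, with KO replicate 1 the highest. Fstl4, a follistatin-like secreted protein, had 0.311, 0.0639 and 0.0653 RPM in WT and 1.37, 1.30 and 1.89 RPM in KO. These 3 genes stayed under 2 RPM on average in KO. Of 35 neuronal and neuroendocrine genes on the list, 8 were in the table, 7 of them higher in KO. Grm4, a glutamate receptor that is not in the set, was lower (79.3 and 3.70 RPM in WT and KO).

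Muscle genes went both ways. Sh3bgr, expressed in heart and skeletal muscle, had 0.544, 0.703 and 0.848 RPM in WT and 5.47, 5.35 and 4.20 RPM in KO libraries (7.17-fold, counting interval 4.82 to 10.7). Mb, the oxygen-binding protein myoglobin, had 0.699, 0.447 and 0.0653 RPM in WT and 7.57, 2.95 and 3.08 RPM in KO. Its KO replicate 1 was more than 2 times the level of either other KO library, and without it the KO mean was 3.02 RPM in place of 4.53. Mb shares 24.9% of its 50-base stretches with Gm49540 and Apol6, which overlap it on the other strand. Ppp1r14a, a smooth muscle inhibitor of myosin phosphatase, had 0.311, 1.02 and 0.783 RPM in WT and 3.78, 2.95 and 2.59 RPM in KO. Cox6a2, the heart and muscle form of a cytochrome c oxidase subunit, went the other way, with 1.09, 0.894 and 1.89 RPM in WT and 0, 0.275 and 0.0701 RPM in KO. With 57 WT and 5 KO reads it was 11.2-fold lower in KO (counting interval 4.34 to 34.3). Without KO replicate 2, which held most of these KO reads, the KO mean was 0.0350 RPM in place of 0.115. Cox6a2 exons overlap those of Itgad on the other strand. Of 33 muscle genes on the list, 7 were in the table and Cox6a2 was the one that was lower.

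Genes best known from liver and metabolism reached some of the higher KO levels. Ddo, the peroxisomal oxidase of D-aspartate, had 1.40, 1.09 and 0.979 RPM in WT and 8.77, 5.35 and 6.38 RPM in KO libraries. Cyp4f15, a fatty acid hydroxylase of the cytochrome P450 family, had 0.855, 2.04 and 1.24 RPM in WT and 6.12, 5.63 and 7.36 RPM in KO. Vnn3, of the pantetheinase family that splits pantetheine into cysteamine and pantothenate, had 0.311, 0.958 and 0.196 RPM in WT and 7.89, 5.01 and 2.73 RPM in KO. The KO libraries of Vnn3 ranged more widely than those of the other pair. Its neighbour Vnn1, 24.8 kb away on the same strand, was higher in KO as well, at a WT mean of 12.3 and a KO mean of 61.8 RPM. Igfals (chr17:24878770-24882008, plus strand), the liver-made carrier subunit of circulating insulin-like growth factors, was at 0 in every WT library. Its KO libraries had 1.69, 2.68 and 0.280 RPM, at least 7.49-fold above the WT floor on average, and without KO replicate 2 the KO mean was 0.985 RPM. KO replicate 3 had little more than the floor.

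Fetub (the protease inhibitor fetuin-B), Akr1d1 (a steroid reductase of bile acid synthesis), Cyp2j5 (a cytochrome P450) and Serpina1e (an alpha-1-antitrypsin gene) had KO means of 3.47, 3.29, 2.88 and 1.28 RPM, and WT means of 0.628, 0.468, 1.01 and 0.150 RPM. The Serpina1e KO libraries were nearly equal at 1.29, 1.37 and 1.19 RPM, though 34.6% of its 50-base stretches occur also in Serpina1a, Serpina1c and Serpina1d. Of 34 hepatic genes on the list, 11 were in the table, 10 higher and 1, Cyp4f14, lower in KO (1353 and 884 RPM in WT and KO).

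The channels and carriers included 2 genes with no read in KO. Aqp8, a water channel of the gut and other epithelia, had 2.25, 0.703 and 1.17 RPM in WT libraries and no read in any KO library. Slc15a2, the carrier PEPT2 for dipeptides and tripeptides, had 1.40, 0.958 and 1.24 RPM in WT and likewise no read in KO. Against a floor of 3 reads per KO library these were at least 6.28-fold and at least 5.47-fold lower. The WT reads numbered 58 and 52, so the genes were near the upper limit of the set in WT and below detection at this depth in KO. Aqp7, a channel for water and glycerol, moved in the opposite direction, from 0.778 ± 0.396 RPM (SD, n = 3) in WT to 3.05 ± 1.62 RPM (SD, n = 3) in KO. Of 18 channels and carriers on the list, 8 were in the table, 5 higher and 3 lower in KO. AC138284.3, a transcript without a GENCODE M21 match at chr9:37329767-37334429 on the minus strand, had 0.389, 1.21 and 1.44 RPM in WT and no read in KO, at least 4.62-fold lower.

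The group of epithelial, secreted and surface proteins is mixed, since it also holds genes known from endothelium (Ecscr) and mesenchyme (Igfbp7 and Dab2). It included Kremen2, a co-receptor through which Dickkopf proteins inhibit Wnt signalling. Kremen2 had 0.855, 1.47 and 2.09 RPM in WT and 11.2, 7.69 and 4.55 RPM in KO libraries. Dab2, an endocytic adaptor, had 2.02, 1.28 and 0.783 RPM in WT and 3.70, 4.60 and 7.29 RPM in KO. The KO libraries of the pair differed in their order, KO replicate 1 being the highest for Kremen2 and the lowest for Dab2. Igfbp7, a secreted binding protein of insulin-like growth factors, had 2.18, 0.639 and 0.457 RPM in WT and 7.89, 4.80 and 2.31 RPM in KO, and its highest WT library lay just under its lowest KO library. When libraries were scaled on the median listed gene, these 2 values crossed (2.25 in WT and 2.19 in KO). Igfbp7 was the 1 gene of the set whose groups then overlapped. Its exons overlap those of Polr2b on the other strand, and whether Polr2b reads enter its value was not tested. Krt4 (chr15:101918536-101924735, minus strand), a keratin of stratified epithelium such as the oesophagus, was at 0 in every WT library. It had 1.29, 1.99 and 0.420 RPM in KO, at least 5.96-fold above the WT floor on average.

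The rest of this group reached 1.77 to 2.52 RPM in KO. They were Ecscr (an endothelial cell-surface protein), C2cd4a (a C2-domain protein), Glipr1 (a secreted cysteine-rich protein) and Wfdc2 (a secreted whey-acidic-protein domain protein). Glipr1 shares 19.4% of its 50-base stretches with other genes, among them Krr1, which overlaps it on the other strand. C2cd4a had 4 WT reads, all in WT replicate 3, and 93 KO reads (25.9-fold, counting interval 9.33 to 92.6). KO replicate 1 carried much of the Ecscr mean, which was 2.52 RPM with it and 1.45 RPM without it. Of 23 genes of stratified and secretory epithelium on the list, Krt4, Wfdc2, Trim29 and Agr3 were in the table. All 4 were higher in KO, as were 84.2% to 100% of the listed genes at such low WT levels, so nothing is read from this count. Some genes of the set are themselves markers of other tissue layers, so their sums restate the choice of the set. Of 24 mesenchyme and matrix markers, 4 were in the table (Comp, Igfbp7, Has2os and Dab2), all higher in KO, with sums of 3.07 to 5.75 RPM in WT and 14.6 to 17.1 RPM in KO libraries. Ecscr was the 1 of 14 endothelial markers in the table. The part of such cells in the result was not tested.

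Bbs1 and Hydin were detectable in every library. Bbs1, a subunit of the BBSome that carries cargo into cilia, had 0.855, 1.60 and 1.17 RPM in WT and 2.66, 6.86 and 4.48 RPM in KO libraries. Hydin, a protein of the central pair of motile cilia, went from 1.21 ± 0.50 RPM (SD, n = 3) in WT to 4.06 ± 1.43 RPM (SD, n = 3) in KO. For both genes KO replicate 1 was the lowest KO library. Of 39 cilia genes on the list, 6 were in the table, 4 of them in the set (with Ccdc162 and Ubxn11, placed here among the other coding genes), 5 higher and 1, the axonemal dynein Dnah2, lower in KO (35.4 and 14.6 RPM in WT and KO).

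Other coding genes had KO means between 2.53 and 3.93 RPM. They were Zmat1 (a zinc finger protein), Ccdc162 and Ccdc69 (coiled-coil proteins), Ubxn11 (a UBX-domain protein), Plekha4 (a pleckstrin homology domain protein) and Arhgap40. Ccdc69 had the widest gap, with 4 reads in WT, all in replicate 1, and 106 in KO (24.4-fold, counting interval 10.7 to 105). Ubxn11 overlaps Sh3bgrl3 on the other strand, which had means of 57.5 RPM in WT and 94.3 RPM in KO.

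Non-coding and unplaced transcripts made up the last group. Hopxos and Has2os lie antisense to Hopx and Has2, and their KO means were 3.26 and 1.87 RPM, against 1.26 and 0.244 RPM in WT. They share 22.5% and 5.42% of their 50-base stretches with genes that include Hopx and Has2, and whether reads of those genes enter the values was not tested. Hopxos had the smallest ratio of the set, 2.58-fold with a counting interval of 1.85 to 3.54. Olfr1532-ps1, named as an olfactory receptor pseudogene although annotated as protein coding, reached 3.49 ± 1.96 RPM (SD, n = 3) in KO, and shares 30.4% of its 50-base stretches with other olfactory receptor genes. The unplaced transcripts CT030182.3 and CT009546.3 of chromosome 13 had KO means of 2.30 and 1.13 RPM, and without KO replicate 1 the latter was 0.728 RPM.

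Just inside the limit of 1.5 RPM were Cyp4f15 and Kremen2, with WT means of 1.38 and 1.47 RPM and KO means of 6.37 and 7.81 RPM. Just outside it was Comp, a cartilage matrix protein, with 1.40, 1.41 and 1.70 RPM in WT and 3.54, 3.84 and 3.92 RPM in KO libraries. Next came Car1, a carbonic anhydrase, with 2.02, 2.36 and 0.653 RPM in WT and 13.6, 11.4 and 8.90 RPM in KO. These 4 genes were higher in every KO library than in any WT library, but Aqp8, the next gene inside with a WT mean of 1.38 RPM, was lower in KO, as was Ubash3b a little farther outside (1.78 RPM).

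Per unit length the order of the genes changed. Exon length was known for the 54 genes matched in GENCODE M21, 52 of them protein coding, and its median was 2392 bases, against 3964 bases for the other listed genes. In RPM per kilobase of exon the median of the set was 0.160 in WT and 0.780 in KO, and that of the other listed genes was 17.0 and 16.5. Penk was then the highest in KO at 4.87 RPM per kilobase, followed by Igfbp7 at 4.14, Kremen2 at 3.68 and Rpl39l at 3.56. Tnfrsf23, the highest in RPM, came to 2.46 RPM per kilobase. Penk and Igfbp7 did not differ beyond their spread, since the KO libraries of both vary by more than the gap between the means. Exons of 19 genes (35.2% of those matched) overlap a gene on the other strand, against 27.8% of the other listed genes, and whether the counting used the strand is not given in the sources used here.

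The median coefficient of variation over the KO libraries was 34.5% for genes of the set with a KO mean above 0, and 13.1% for the other listed genes. In WT libraries the medians were 51.1% and 8.02%. Both sets of values hold counting error, which is larger at these low read numbers. For the 53 genes higher in KO, the KO variation expected from counting alone had a median of 15.7%. The source of the rest was not tested. The highest KO library was at least 2 times the lowest in 23 of the 53 higher genes and at least 3 times in 6. KO replicate 1 was the highest for 24 genes (45.3%), replicate 2 for 19 (35.8%) and replicate 3 for 10 (18.9%), and the shares were 51.3%, 26.1% and 22.6% for the 694 other genes higher in KO. Among the genes higher in KO, much of the KO mean came from 1 library for CT009546.3, Ecscr, Fmr1nb, Igfals and Mb, whose KO means moved by over 1.5 times without it. The KO mean of Cox6a2, lower in KO, moved by as much without KO replicate 2. On the WT side 19 genes moved by over 1.5 times, and so did their ratios. Without WT replicate 1 these were Ccdc69, Fstl4, Igfbp7, Mb, Penk, Rpl39l, Tnfrsf23 and Xlr3b, without replicate 2 CT030182.3, Ecscr, Has2os, Serpina1e, Trim29, Vnn3 and Wfdc2, and without replicate 3 C2cd4a, Fmr1nb, H2-Eb1 and Nefh. The WT mean without that library was at most 0.548 RPM, and it was 0 for C2cd4a, Ccdc69, H2-Eb1, Rpl39l and Tnfrsf23.

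The genes came from most chromosomes. Chromosome 7 held the largest number, 8 of its 103 listed genes (7.77%), namely Ppp1r14a, Kirrel2, Plekha4, Olfr1532-ps1, Aqp8, Cox6a2, Stk32c and Tnfrsf23. Chromosome 11 held 5 of 136 (3.68%), and chromosomes 4, 5, 10, 15, 16 and 17 held 4 each. The X chromosome held 3 of 29 (10.3%), which were Fmr1nb, Xlr3b and Zmat1, and chromosome 16 held 4 of 47 (8.51%). Over the whole table the set is 4.01% of the genes. Chromosome 14, with 33 listed genes, held none, nor did the 3 genes of Y or the 1 mitochondrial gene. These are shares of small numbers and are given as a description.

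**Figure D4:**
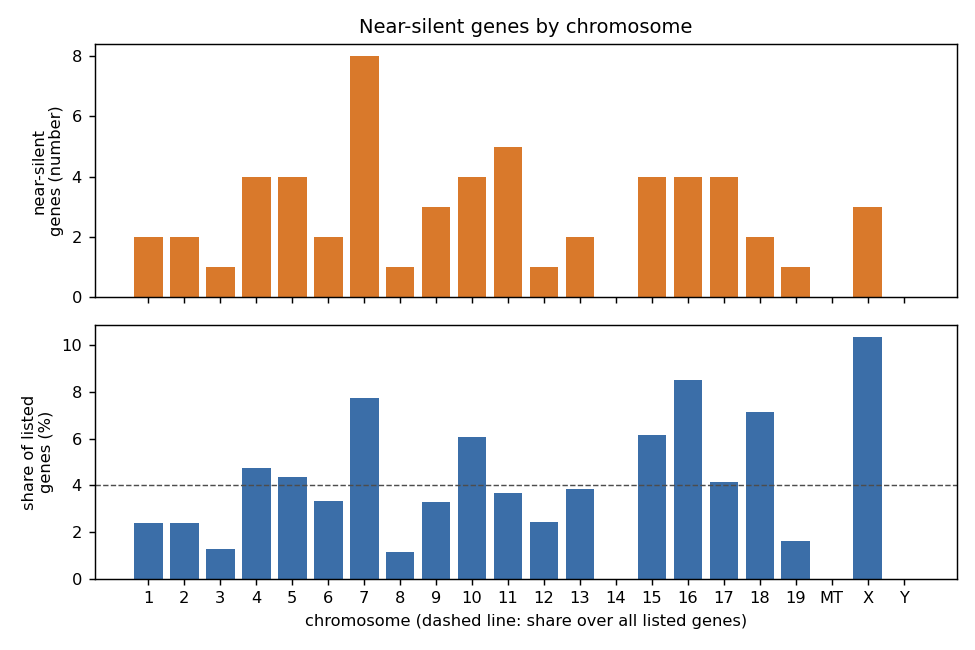
Near-silent genes by chromosome, as their number (upper bars) and as a percentage of the listed genes of that chromosome (lower bars), with a dashed line at the share over all listed genes, 4.01%. Chromosome 7 has the largest number, 8, and the X chromosome the largest share, 10.3%, from 3 genes.

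The genes were scattered along the chromosomes as well. Only 3 pairs of the set lay within 1 Mb of each other, Hopxos and Igfbp7 (247 kb apart), Hormad2 and Nefh (498 kb) and Ddo and Ccdc162 (857 kb). Another listed gene lay within 100 kb of 24 of the 57. For the 22 of these that were higher in KO, the nearest such neighbour was higher in 15 cases and lower in 7, where 52.5% of all listed genes were called higher, and nothing is read from this count. None of these neighbours was itself near silent. The nearest ones were Glul at Teddm2 and Sh3bgrl3 at Ubxn11, which overlap on the other strand. Next were Paqr4 at 0.87 kb from Kremen2 and Aplp1 at 2.00 kb from Kirrel2. Paqr4, on the strand of Kremen2, had means of 70.4 RPM in WT and 160 RPM in KO.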

How the data were processed

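Poly(A) RNA-seq of 3 WT and 3 KO organoid samples was used, grouped by the genotype in their titles. Per the submitters' processing notes and the methods, the authors trimmed reads with Trim Galore (0.4.2), mapped them to GRCm38 with HISAT2 (2.0.3), counted unique reads over exons of merged transcripts in SeqMonk and selected genes with DESeq2. The deposited table holds those genes with linear RPM values, scaled by the authors to library depth, and with their FDR, which was not used. RPM values in each library were whole multiples of 1 step (within 0.01 read, 100% of values up to 1000 reads), taken as 1 read, which gives the depths, floors and counting intervals (95%, exact binomial). No count test was run.

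limma (3.58.1, R 4.3.3) was fitted to log2(RPM + 0.1) over all 1420 genes, two-sided, without covariates, and was checked on simulated data. Ratios are of mean RPM. Every gene of the set is named, with values for each library where it has one of the 10 highest KO means, is at 0 in WT, is lower in KO, lies next to the limit, or is a germline, class II, muscle or neuronal gene. Names, strands and exon lengths came from GENCODE M21 (54 genes matched, 45 with identical span), and shared stretches of 50 bases from its transcripts. Promoters came from RefSeq (GRCm38.p6) and were used where their start lay within 1000 bases. The genes, gene lists and roles were chosen with earlier results of these data known. Alternatives were a replicate block, other pseudocounts, centring, a filter on low genes, an intensity trend, other limits for the WT mean, and leaving out each library.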

Additional observations from a re-analysis of the deposited data

How the results depend on the processing

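At 0.5 or 1 RPM as pseudocount, with centred libraries, with an intensity trend and without each replicate in turn, limma called 53 genes of the set higher and 4 lower in KO. The replicate numbers did not pair the libraries (correlations of same-numbered deviations -0.08, 0.09 and 0.06), and with the replicate block the counts were again 53 and 4. Leaving genes with a low mean out of the limma fit gave 0 higher and 0 lower, by construction, since none of the 57 was among the 1278 genes kept. All 513 values of named genes kept their direction and side of the threshold in the alternatives that were run on them. The set held 39 genes with a limit of 1 RPM, 71 with 2 RPM, 47 with every WT library under 1.5 RPM, 56 after scaling, and 58 to 60 without 1 WT replicate. The median KO mean was 2.63 to 3.11 RPM without 1 KO replicate, 2.33 RPM with the median of the KO libraries in place of their mean, 2.29 RPM at a limit of 1 RPM and 3.20 RPM at 2 RPM, against 2.82 RPM. Of the 14 genes added at 2 RPM, 13 were higher in KO. Alternatives for the CpG count of promoters were not run, as too few genes had a promoter. Depth limits the WT levels, where 6 genes had at most 3 reads in each library.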
